A study of Mus musculus and other sequences with 2 samples.

Results

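MiRNAs that mature liver and pancreas are known for were examined in mouse embryo culture media, as a tissue-restricted comparison for the sequences that embryos release. All assays for mmu-miR-122, mmu-miR-216a, mmu-miR-216b, mmu-miR-217, mmu-miR-375 and mmu-miR-802 on a TaqMan rodent array were taken by name, without minor arms, whatever their values. This gave 7 assays under 6 names, out of 750 miRNA assays under 724 names. Both miR-217 assays were kept, 1 on each of the 2 cards, and the other 5 assays were on card A. No minor-arm or rat-named assay of these numbers was present.

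Conditioned media came from 1 microdroplet of 8 μL in which 25 CD1 mouse embryos, blastocysts by their labels, were cultured from 99 to 116 h post-hCG, and blank media from 1 microdroplet without embryos kept for the same 17 h. Both media were KSOM free of BSA, to which the labels add 0.1% polyvinylacetate. From each microdroplet 6 μL was lysed without RNA extraction, so that what was measured is miRNA in the medium, from whichever cells or fluid it came. The embryos of the conditioned droplet were pooled, and there was 1 sample per medium, so that no test between media was possible and every value below is 1 well.

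Each well gives a Ct, the PCR cycle in which the signal passes a set threshold. It runs as a log2 scale turned upside down, so that an earlier Ct means more template, and a well that passed no threshold within 40 cycles is undetermined. An assay was called detected at a Ct below 35, the limit that the study used beside one on signal height, which was not applied here. Between wells of 1 assay, the spread of the small nuclear RNA U6, with 4 wells per card, was an SD of 0.68 cycles in conditioned media and 3.22 in blank media on card A, and 0.83 and 0.23 on card B. The 3.22 turned on 1 well at 20.2, without which the SD was 0.49. These SDs come from repeat wells of 1 lysate and 1 other assay, and leave out any variation between microdroplets, so that a difference between media larger than such an SD is not shown to exceed the spread between droplets. The U6 wells lay at Ct values from 19.0 to 27.3, so that their SDs do not measure the spread of later or earlier wells either. Mean U6 was 4.08 cycles earlier in conditioned media on card A and 7.07 earlier on card B. Other small RNA controls were also read on both cards. In conditioned media, snoRNA135 was at 33.0 on card A and 29.3 on card B, and snoRNA202 at 28.5 and 29.8. U87 was at 32.7 on card A and undetermined on card B, whereas Y1 was undetermined on card A and at 15.5 on card B. All of these were undetermined in blank media. The U6 SDs therefore do not stand for how well a control matched between cards. The plant negative control miR-159a was undetermined in all wells.

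A mature miRNA guides the silencing complex to messages that pair with its seed, bases 2 to 8 from its 5′ end. MiR-122 is by far the most abundant miRNA of hepatocytes, where it acts in lipid and cholesterol metabolism. MiR-216a, miR-216b and miR-217 are miRNAs of the exocrine, acinar pancreas. MiR-375 is the best known miRNA of pancreatic islets, where it restrains insulin secretion, and it is also made in other neuroendocrine and epithelial cells. MiR-802 is found in liver and pancreas and is linked to glucose metabolism. The mouse blastocyst is best known for other miRNAs, those of the miR-290 cluster.

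The mature sequences are shown because the acinar miRNAs come from neighbouring genes and 2 of them are near copies. They are given 5′ to 3′ from RefSeq (GRCm38.p6), with the seed in capitals:
miR-216a-5p, chr11:28757018-28757039, plus strand: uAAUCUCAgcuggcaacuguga
miR-216b-5p, chr11:28746204-28746225, plus strand: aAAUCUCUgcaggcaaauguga
miR-217-5p, chr11:28763761-28763783, plus strand: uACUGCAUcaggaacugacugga
miR-802-5p, chr16:93369737-93369758, plus strand: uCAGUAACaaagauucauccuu

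The assay names carry no arm, and the 5p arms are shown as those usually meant by these names. The coordinates are those of the RefSeq sequences, since the Ct table names no genome build. MiR-216a-5p and miR-216b-5p were identical at 18 of 22 bases, and differed by U1A, A8U, U11A and C17A, counted from the 5′ end with the base of miR-216a first. Their seeds therefore shared 6 of 7 bases and differed at the last. No other mature name among the 1679 in the RefSeq table had the seed of any of the 4 sequences. In the annotation, Mir216a and Mir217 are adjacent genes, and Mir216b is nearby on the same strand, where Mir216c overlaps it on the opposite strand and the long non-coding RNA Mir217hg spans it. Mir375 lies between Cryba2 and Cfap65, and Mir802 between 2 long non-coding RNAs.

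Conditioned media gave a Ct below 35 for 1 of the 7 assays, compared with 37.3% of all miRNA assays and 39.8% of those on card A. Blank media gave one for 4 of the 7, compared with 29.1% and 32.6%. None was detected in conditioned media only, compared with 13.9% of all miRNA assays and 14.7% on card A, shares at which about 1 of 7 would be. In blank media only, 3 of the 7 were detected, namely miR-216b, the card A assay of miR-217, and miR-375, compared with 5.6% of all miRNA assays and 7.49% of those on card A. The card B assay of miR-217 was detected in both media, compared with 23.5% of all assays and 25.1% on card A, and 3 assays were detected in neither, compared with 57.1% and 52.7%. With 7 assays in 1 sample per medium, 4 of them for the neighbouring acinar genes, these counts describe the wells and not the tissues. They rest on the Ct limit alone and are not detections by the standard of the study. With its limit on signal height added, the study reported fewer sequences in each medium, and far fewer exclusive to blank media, than were counted here. Whether any of the 7 assays would pass that limit was not tested.

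**Figure D1:**
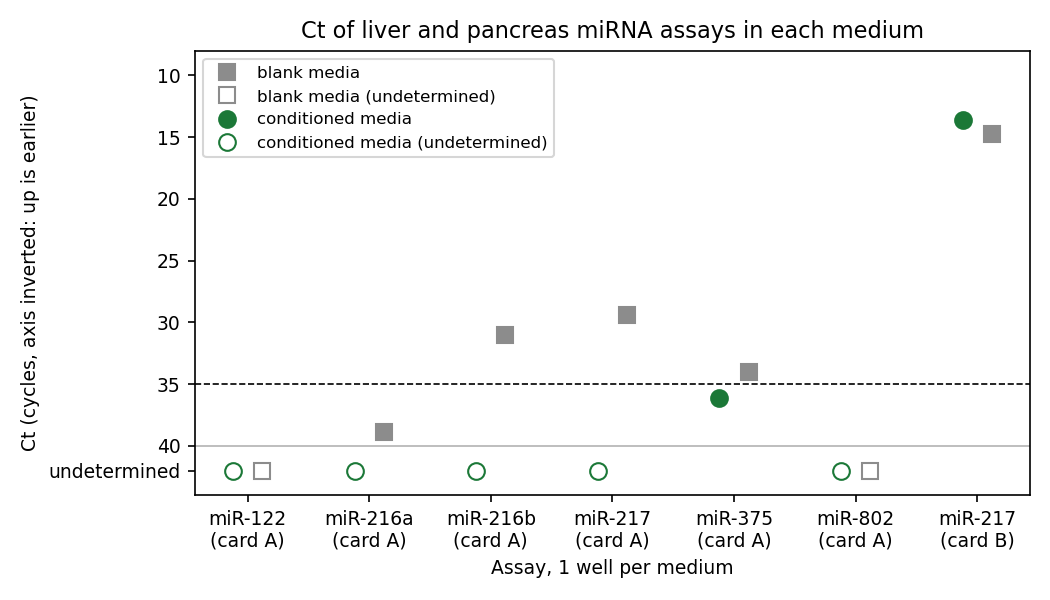
Ct of each of the 7 assays in conditioned media (circles) and blank media (squares), with 1 well per point, the vertical axis inverted and open symbols for undetermined wells. The dashed line marks the Ct limit of 35 and the grey line cycle 40. Of the 6 card A assays, 4 had a Ct in blank media and 1, miR-375, in conditioned media, whereas miR-217 on card B was early in both.

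The hepatocyte miRNA, mmu-miR-122, was undetermined in both media. So was mmu-miR-802. In this they were like 52.3% of all miRNA assays, and like 46.8% of those on card A. An undetermined well shows only that no signal crossed the threshold in 40 cycles, which at 1 well per medium does not show that the miRNA was absent.

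The acinar assays of card A were all undetermined in conditioned media and all had a Ct in blank media. In blank media, mmu-miR-217 came up at 29.4, mmu-miR-216b at 31.0 and mmu-miR-216a at 38.9. The order was thus miR-217, miR-216b and then miR-216a, where miR-217 and miR-216b were 1.55 cycles apart, within the SD of U6 wells on that card in blank media, though not within it without the outlying well. MiR-216a was later than both by more than that spread, although Ct values of different assays also depend on how efficiently each amplifies. It was among the latest signals of the sample, with 5 of the 244 miRNA assays with a Ct in blank media later still. Over the whole array, 51 of 750 assays (6.8%) had a Ct in blank media and none in conditioned media, as had 8.82% of those on card A, while 15.2% of all assays had the reverse.

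These differences could be measured on 1 side only. If the undetermined wells in conditioned media are taken as later than cycle 40, miR-217 was at least 10.6 cycles, miR-216b at least 9.02 cycles and miR-216a at least 1.12 cycles earlier in blank media. The bounds for miR-217 and miR-216b exceeded the SD of U6 wells on card A in either medium, and that for miR-216a did not exceed the SD in blank media, except without the outlying well. Among the 42 assays detected in blank media only, whose median Ct was 25.0, miR-217 ranked 28 and miR-216b ranked 29 by Ct, so both lay in the later part of that group. The direction was opposite to that of U6, which was earlier in conditioned media.

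The assays with values most like theirs on card A, among 32 others with a Ct in blank media only, mostly had unrelated names. MiR-128a was 0.09 cycles and miR-202 was 0.71 cycles from miR-216b. MiR-296 was 0.13 cycles from miR-217, and miR-216b itself came next. For miR-216a the nearest were rno-miR-343 at 0.45 cycles and miR-208b at 0.90 cycles. Such likeness rests on 1 Ct in 1 sample.

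**Figure D2:**
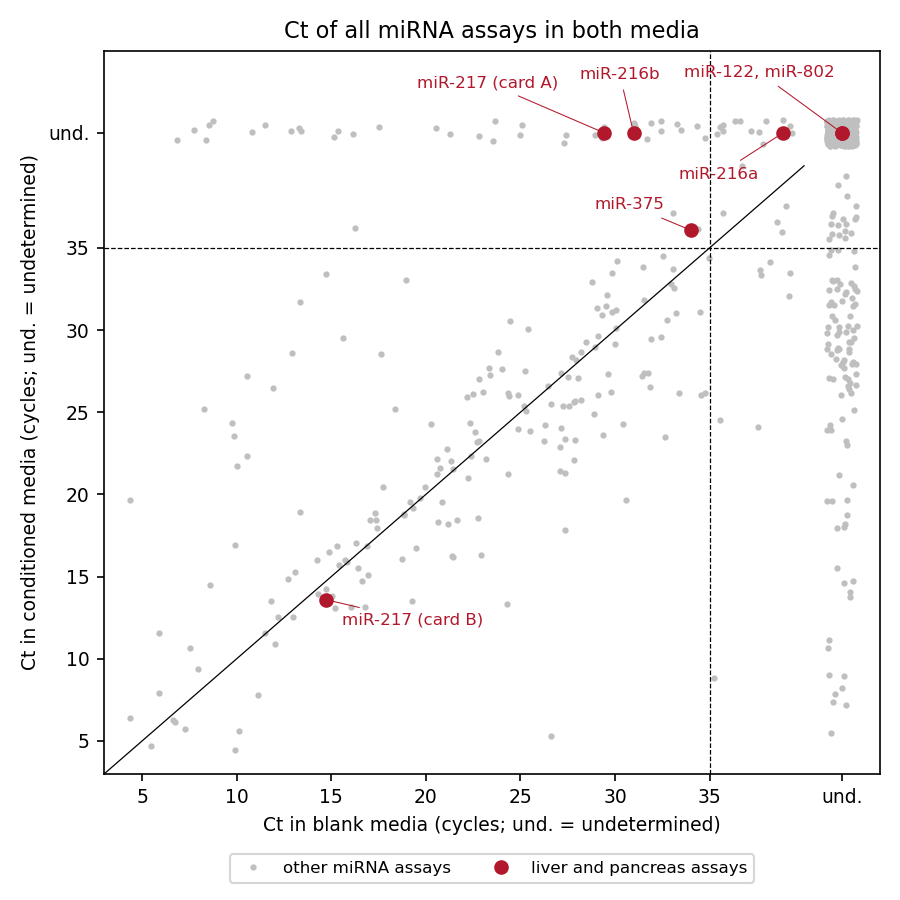
Ct of every miRNA assay in blank media (horizontal) and conditioned media (vertical), in cycles, with undetermined wells in bands beyond 40, spread at random within the band for the other assays. The diagonal marks equal Ct and the dashed lines the limit of 35. The red points of miR-216a, miR-216b and miR-217 (card A) lie in the band without a Ct in conditioned media, miR-375 lies just above the diagonal, and miR-217 (card B) lies near it at an early Ct.

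The islet miRNA miR-375 was the only card A assay of the 7 with a Ct in both media. With conditioned media, mmu-miR-375 had a Ct of 36.1, just outside the limit of 35, and with blank media one of 34.0, just inside it. It was thus 2.08 cycles later in conditioned media, which is less than the SD of U6 wells on card A in blank media and more than that without the outlying well. Of the 193 assays with a Ct in both media, 47 were later in conditioned media by more than 2 cycles, 62 were earlier by more than 2, and the median difference was 0.02 cycles. Relative to mean U6 of the card, which was earlier in conditioned media, miR-375 was 6.16 cycles later in conditioned media. MiR-376c on the same card was closest to it, at 0.40 cycles over both media, at 36.1 with embryos and 34.4 without, followed by rno-miR-743b at 1.41 cycles.

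MiR-217 was assayed a second time, on card B. That assay came up at 13.6 with embryos and at 14.7 without them. It was therefore earlier than every U6 well of the card, the earliest of which were at 19.0 with embryos and 26.8 without. By Ct it ranked 34 of 307 assays in conditioned media, and 45 of 244 in blank media. The Ct was 1.11 cycles earlier in conditioned media, but relative to mean U6 of that card it was 5.96 cycles later. The 1.11 cycles were more than the SD of U6 wells on card B in either medium, which does not measure the spread of wells this early. A Ct below 15 was found for 44 assays in conditioned media and for 48 in blank media. It was found in both media for 22 assays, or 2.93% of all, of which 14 were on card B. Over these 22, differences (conditioned minus blank) lay between -5.47 and 5.89, with a median of -0.37, miR-217 included. The 22 were taken for being early in both media, which limits how far their wells could differ. The nearest of the card were miR-28-3p and miR-1928, both likewise near 14 cycles in conditioned media.

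The pair of miR-217 assays did not give the same result. In blank media their Ct values were 14.7 cycles apart, and in conditioned media card B gave a Ct of 13.6 while card A gave none. Among the 26 names with 2 assays, 8 had a Ct for both in conditioned media, and these differed by 1.25 to 9.39 cycles with a median of 4.67. In blank media only miR-217 and miR-223 had a Ct for both, and the assays of miR-223 were 2.18 cycles apart. The 2 assays of a name fell into different classes of detection for 11 of the 26 names, miR-217 among them. Of the 15 names whose assays shared a class, 10 did so only by detection in neither medium. In conditioned media, 4 names had an assay with a Ct below 15, namely miR-217, miR-224, miR-325 and miR-376a#, and for all 4 the second assay was undetermined. Of the 12 names whose earlier assay had a Ct from 15 to 35 there, 8 had a Ct for the second assay. In blank media the second assay had a Ct for 1 of 2 names with an assay below 15, miR-217 itself, though 14.7 cycles later. For names from 15 to 35 there, it had one for 1 of 5. These names are too few to compare early with later assays in either medium, and no difference was tested. Which sequence variant each miR-217 assay was designed on is not given in the sources used here, and the Ct alone does not settle which of the pair reads miR-217.

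**Figure D3:**
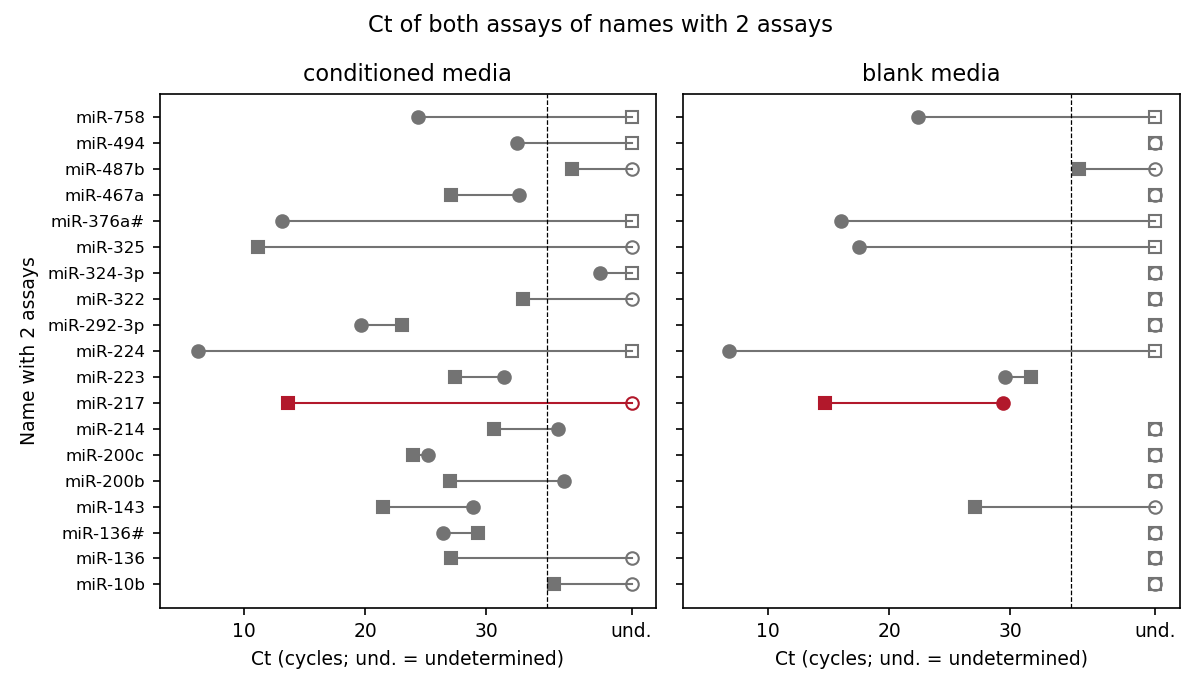
Ct of both assays, in cycles, for the 19 names with 2 assays and a Ct in at least 1 well, in conditioned media (left) and blank media (right). Circles are the card A assay where the pair lies on both cards, open symbols are undetermined and the dashed line is a Ct of 35. MiR-217, in red, had the widest measured gap, 14.7 cycles in blank media, and no Ct on card A in conditioned media.

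Other miRNAs known from these tissues were read in the same way. Of 4 other liver-enriched assays, miR-192 and miR-194 were detected in both media, and miR-215 and miR-148a were undetermined in both. Of all assays on card A, 25.1% were detected in both media and 46.8% were undetermined in both. MiR-192, which is shared with gut and kidney, had a Ct of 25.7 with embryos and 27.9 without. MiR-194, which is transcribed together with miR-192 or miR-215, had 20.4 and 17.7, and so went the other way. The size of both differences was below the SD of U6 wells on card A in blank media, but not below it without the outlying well. Of 5 other pancreas assays, miR-184 had a Ct of 22.2 with embryos and 23.2 without, and miR-204, which is found in islet beta cells, had 34.8 in blank media and none in conditioned media. MiR-7b, miR-148a and miR-148b were undetermined in both. None of these 8 assays, of which miR-148a belongs to both lists, was detected in conditioned media only, which in lists this short is near the 14.7% of all assays on card A. The assay named miR-7, which was outside these lists, was detected in both media and was slightly earlier in blank media.

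Muscle and neural miRNAs, as other tissue-restricted lists, and the sequences the study took for individual assays served for comparison. The latter are panel A, of miRNAs known from embryo media, and panel B, of the miR-290 cluster. Of 7 muscle assays, 2 were detected in both media, 1 in conditioned media only and none in blank media only. The 1 was miR-133a, with a Ct of 31.6. Of 10 neural assays, 2 were detected in both media, 1 in conditioned media only and 1 in blank media only, which were miR-219 with a Ct of 8.97 and miR-128a with 31.1. Over all assays, 23.5% were detected in both media, 13.9% in conditioned media only and 5.6% in blank media only. In lists this short, the muscle and neural counts were near those shares. The share without detection in either medium was 3 of 7 for the liver and pancreas members, 4 of 7 for muscle and 6 of 10 for neural assays, beside the 57.1% of all assays.

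The study chose panel B for its signal in conditioned media on this same array, so its detection there is a description and no independent comparison. All 7 panel B assays were detected in conditioned media only, from a Ct of 19.6 for miR-292-3p to 33.0 for miR-291-3p, and the 1 with a Ct in blank media, miR-294, was there at 37.6. Of the 5 panel A assays, 4 were detected in both media and miR-320 in conditioned media only. On card A, which held 5 of these 7 assays and 6 of the 7 liver and pancreas assays, both lists were read from the same 2 lysates. The median Ct of the detected assays was 24.1 for panel B and 25.5 for all 280 in conditioned media. In blank media it was 30.2 for the 4 detected liver and pancreas assays and 22.8 for all assays detected there. The lists differ in the efficiency of their assays, and no difference between them was tested.

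**Figure D4:**
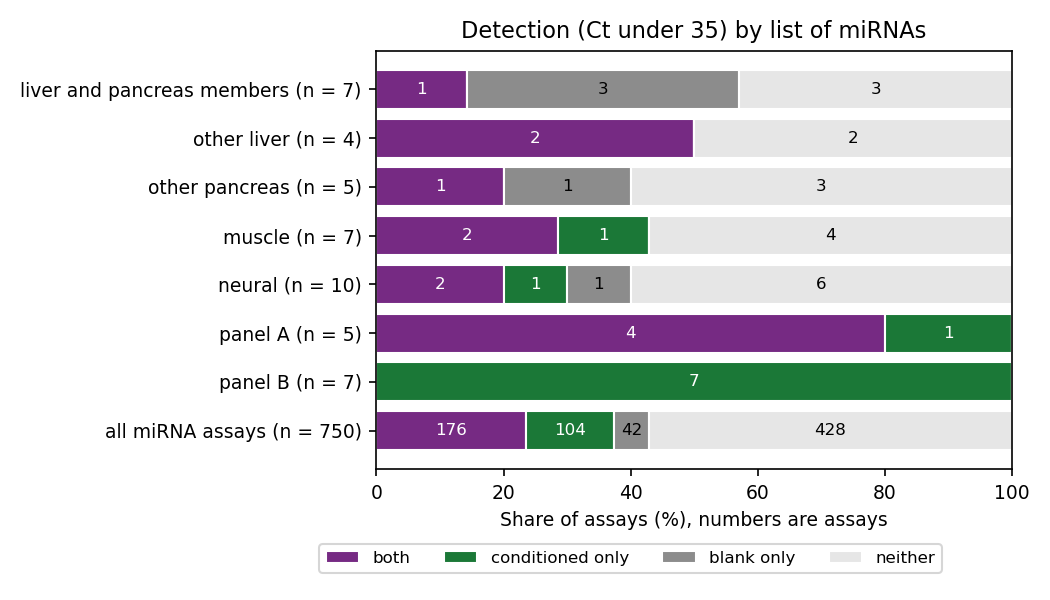
Share of assays of each list, in percent, detected at a Ct below 35 in both media, in conditioned media only, in blank media only or in neither, with the number of assays printed in each bar. The liver and pancreas members have no part in conditioned media only, panel B lies there entirely, and 428 of all 750 assays were detected in neither.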

How the data were processed

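The authors lysed 6 μL of each medium with a Cells-to-Ct kit, reverse transcribed it with Megaplex primers, pre-amplified it for 12 cycles without dilution and ran 40 cycles on cards A and B of the TaqMan rodent array. The authors deposited non-normalized Ct values, which are log2 values turned upside down and came from the instrument software. Its threshold and baseline settings are not stated. Their own fold change per assay, also deposited, was not used. The samples were grouped by the culture label. Of 768 wells, 18 control wells were left out of counts. The Ct gives no read depth, and 1 sample per medium gave no test between media. Members and lists were chosen with earlier results of these data known, and the other lists hold liver (miR-192, miR-194, miR-215, miR-148a), pancreas (miR-7b, miR-184, miR-204, miR-148a, miR-148b), muscle (miR-1, miR-133a, miR-133b, miR-206, miR-208, miR-208b, miR-499) and neural (miR-9, miR-124a, miR-128a, miR-132, miR-137, miR-138, miR-153, miR-212, miR-218, miR-219). The names miR-7a, miR-208a, miR-124 and miR-128, also searched, matched no assay. Named assays were all members, controls, list members counted in small numbers, and the 2 assays of the card nearest in Ct to each member. Others were chosen after their values were seen. Alternatives were Ct limits of 32, 38 or any Ct, early wells left out, unique names, added arms, and differences relative to U6 or the card median. The counting code was run on 750 simulated assays drawn on either side of the same Ct limit, and all 750 classes were recovered. This checks the code only and says nothing on the reliability of the wells. Sequences came from RefSeq tables and were printed for 4 of the 6 names, while those of miR-122 and miR-375 were not used. Python 3.11.15, pandas 2.3.3, numpy 2.4.6 and matplotlib 3.10.9 were used.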

Additional observations from a re-analysis of the deposited data

How the results depend on the processing

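No paired analysis was possible because each medium had 1 sample and no replicate could be left out. The number of the 7 assays detected in conditioned media, 1 in the analysis reported, and the number detected in both media, also 1, were each 2 with a Ct limit of 38 or any determined Ct, through miR-375, and each 0 when assays with a Ct under 15 were left out or when wells earlier than the earliest panel assay (19.6) did not count, through miR-217 on card B. The number detected in blank media only, 3 in the analysis reported, was 2 with a Ct limit of 32 or 38 and with unique names. Over all alternatives, 34 of 42 counts for the 7 assays moved by no more than 1.5 times. This tally takes such a change from 3 to 2 as unmoved, and includes the setting with added arms, which could change nothing. MiR-375, 2.08 cycles later in conditioned media, was later by 6.16 relative to mean U6, 7.18 relative to median U6 and 7.42 relative to U6 without its farthest wells, the last chosen after seeing the data. MiR-217 on card B, with a difference of -1.11 cycles, turned to 5.96, 5.85 and 5.53 cycles later under the same settings, which shift every assay of a card alike. Centred on the card median instead, the differences stayed close to those reported, at 2.2 cycles for miR-375 and -1.37 cycles for miR-217 on card B. Only the settings relative to U6 moved them. Of the other lists, the pancreas list had 1 assay in blank media rather than 2 with a limit of 32. With miR-7 (added after seeing the data, since the array names miR-7a so), it had 2 in conditioned media rather than 1. In blank media it then had 3 rather than 2, since miR-7 was detected in both media. Panel B had 1 assay in blank media rather than 0 with a limit of 38 or any Ct. Adding minor-arm and rat-named assays changed nothing, since the array had none.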
